A study of Mus musculus with 9 samples.

Results

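The genes described here are 10 markers that are widely used to recognise fibroblasts and embryonic mesenchyme: Pdgfra, Pdgfrb, Cd248, Twist1, Twist2, Prrx1, Thy1, Postn, Dcn and Lum. They are 10 of the 56691 genes in the deposited tables, taken by gene symbol, and each symbol was found in all 9 libraries. The members were chosen on known roles in mesenchyme and selected with 1 measured value in view, the change of Cd248 in BV+ cells, since Cd248 was already known to be among the genes with the largest increase in the BV+ libraries labelled NRF1 overexpression (OE). The BV+ values and the comparisons that share BV+ libraries are therefore given as a description, without p-values for the 10 genes.

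RNA-seq was performed on mouse BVSC pluripotent stem cells (PSCs) that had been differentiated as embryoid bodies and sorted by a Blimp1-mVenus reporter (BV) into BV+ primordial germ cell-like cells (PGCLCs) and BV- somatic cells. The PSCs carried either a doxycycline-inducible Nrf1 cDNA or the control vector, and 1.5 μg/mL doxycycline was present from day 2 to day 5. The 4 groups were BV+ NRF1 OE (n = 2), BV+ Ctrl (n = 2), BV- NRF1 OE (n = 3) and BV- Ctrl (n = 2). All groups share the reporter line and the doxycycline course, the expression came from an integrated lentiviral vector, and the sources used here do not tie a replicate to a separate differentiation, so p-values measure the spread between these libraries.

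Mesenchymal cells are loosely arranged, migratory cells that form connective tissue, and fibroblasts are their matrix-producing descendants. PDGF ligands act on them through the receptor tyrosine kinases PDGFRα and PDGFRβ, whereas the basic helix-loop-helix factors TWIST1 and TWIST2 and the homeobox factor PRRX1 are transcription factors of embryonic mesenchyme. CD248 (endosialin) and THY1 are surface proteins, and periostin (Postn), decorin (Dcn) and lumican (Lum) are secreted matrix proteins. PDGFRα is also made by primitive endoderm, PDGFRβ by pericytes and THY1 by T cells and neurons, so none of the 10 genes marks a fibroblast by itself.

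Total counts were between 13702162 and 19625460 per library. Nrf1 itself, measured in CPM (counts scaled to library size), was at 122 ± 3.17 CPM (SD, n = 3) in BV- NRF1 OE and 102 ± 4.26 (SD, n = 2) in BV- Ctrl cells, a log2 fold change (log2FC) of 0.26 (SE, the standard error, 0.0951; adjusted p = 0.0718, edgeR). The BV+ libraries had means of 97.6 ± 2.61 CPM (SD, n = 2) for NRF1 OE and 90.7 ± 0.509 (SD, n = 2) for Ctrl (log2FC 0.10, SE 0.104). Nrf1 was thus not called in either population, so its own level does not establish the overexpression, and NRF1 OE is used below as the name the labels give. The markers of the sort did not separate the populations. Prdm1, the gene behind the BV reporter, was at 60.1 ± 3.75 CPM (SD, n = 2) in BV+ Ctrl and 58.0 ± 0.922 (SD, n = 2) in BV- Ctrl cells. At NRF1 OE it was at 54.9 ± 2.23 (SD, n = 2) in BV+ and 54.8 ± 10.7 (SD, n = 3) in BV- cells. Of 9 PGC markers, 0 were higher in BV+ cells at either condition by edgeR at an adjusted p under 0.05. Of all genes tested, 1.1% were higher in BV+ cells at Ctrl and 9.9% at NRF1 OE. At NRF1 OE 3 PGC markers (Dppa3, Tfap2c and Nanos3) were lower in BV+ than BV- cells, beside 3.85% of all genes. That count of 3 became 2 when only the NRF1 OE libraries were fitted. The pluripotency gene Pou5f1 stood at 834 ± 50.6 CPM (SD, n = 2) or more as a mean in every group. The names BV+ and BV- are used below as the labels give them.

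To show the sequence around the starts of genes that differ in their pattern, the 250 bases before the annotated start are printed for Postn, which was highest in BV+ cells, for Pdgfra, which was lower with NRF1 OE in both populations, and for Twist1, which varied little. They are RefSeq sequences of mouse build GRCm38.p6, whereas the reads were mapped to GRCm39. Entries were found for 5 of the 10 genes, in 6 windows, and the 2 windows that overlap an annotated exon (Twist2 and Prrx1) are not shown. Postn has 2 windows, and the one that holds a searched motif is printed. The other, chr3:54359017-54359266 (+ strand), held neither TATAAA nor an E-box. The Postn window is chr3:54360857-54361106 (+ strand, the second of its 2 starts), the Pdgfra window is chr5:75152001-75152250 (+ strand), and the Twist1 window is chr12:33957421-33957670 (+ strand). Capitals mark TATAAA and the E-box CANNTG, the letters that TWIST-type factors recognise, searched on both strands.
Postn: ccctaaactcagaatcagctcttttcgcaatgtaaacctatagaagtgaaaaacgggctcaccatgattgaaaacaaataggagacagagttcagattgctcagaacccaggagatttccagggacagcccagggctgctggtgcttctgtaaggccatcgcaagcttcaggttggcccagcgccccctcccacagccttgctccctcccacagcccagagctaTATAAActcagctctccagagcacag
Pdgfra: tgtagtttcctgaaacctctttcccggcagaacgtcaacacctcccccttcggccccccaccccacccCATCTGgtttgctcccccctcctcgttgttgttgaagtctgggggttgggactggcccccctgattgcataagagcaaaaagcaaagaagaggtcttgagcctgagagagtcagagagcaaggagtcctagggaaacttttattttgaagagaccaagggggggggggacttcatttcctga
Twist1: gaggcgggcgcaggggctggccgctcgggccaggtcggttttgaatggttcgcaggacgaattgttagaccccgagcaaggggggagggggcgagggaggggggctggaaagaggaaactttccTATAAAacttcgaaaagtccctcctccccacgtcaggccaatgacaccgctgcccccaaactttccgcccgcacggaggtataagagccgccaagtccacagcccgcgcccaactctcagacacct

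The Postn window held TATAAA with its first base 26 bases before the start, and the Twist1 window held it 126 bases before the start. TATAAA was found in 12.4% of the 32851 windows of the same length. The Pdgfra window held 1 E-box, 182 bases before the start, and 66.2% of all windows held at least 1. The palindromic NRF1 consensus motif, searched on both strands, was in 0 of the 6 windows of these genes and in 3.74% of all windows. Twist1 had 18 CpG dinucleotides in its window, more than in 78.3% of all windows, whereas Postn and Pdgfra had 4 each. A match to these letters is a description and not a measured binding site.

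All 10 markers were expressed at low levels. FPKM, in which fragments are scaled to both transcript length and library size so as to allow genes to be compared per length, were highest for Cd248 in BV+ NRF1 OE cells, at 5.17 ± 2.84 (SD, n = 2). There Cd248 was followed by Pdgfrb at 2.28 ± 0.636 FPKM and Twist1 at 1.69 ± 0.672 (SD, n = 2), and these neighbours did not differ beyond their summed SDs. In BV- Ctrl cells the order was different: Twist1 led at 1.65 ± 0.276 FPKM, Thy1 followed at 1.38 ± 0.233 and Pdgfra at 0.785 ± 0.00707 (SD, n = 2), whereas Cd248 stood below Pdgfrb at 0.115 ± 0.0636. Twist1 and Thy1 did not differ beyond their spread in that group. Postn, Twist2, Prrx1, Dcn and Lum had mean levels of 0.235 FPKM or less in every group.

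**Figure D1:**
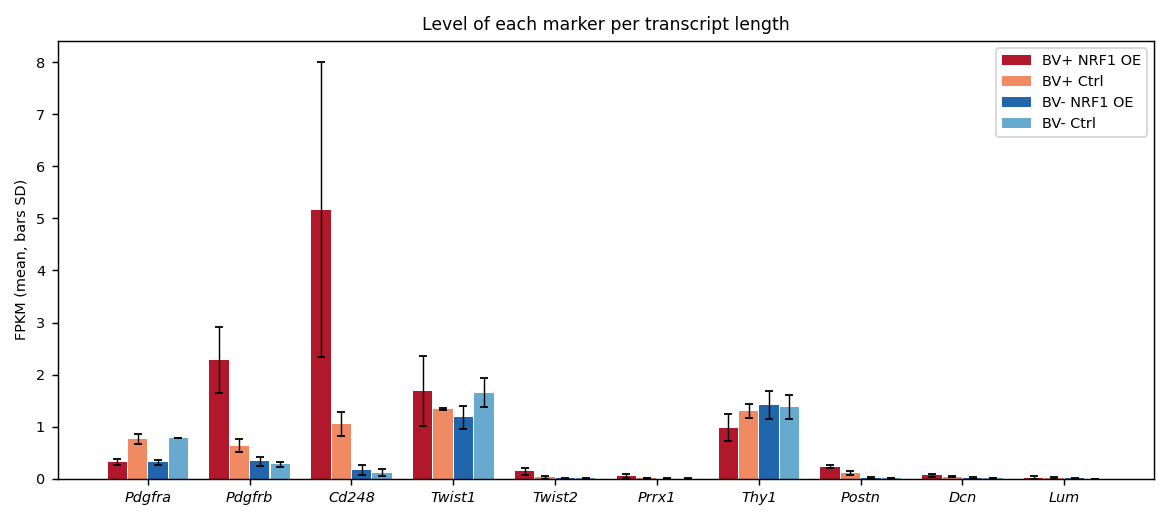
Mean FPKM (vertical axis, linear) of the 10 markers in the 4 groups, with error bars for the SD over 2 or 3 libraries. Cd248 and Pdgfrb stand out in BV+ NRF1 OE cells, with a wide SD, while Twist1 and Thy1 have similar levels in all groups.

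A filter on low counts left 16903 genes for testing and kept 6 of the 10 markers: Pdgfra, Pdgfrb, Cd248, Twist1, Thy1 and Postn. Twist2, Prrx1, Dcn and Lum were below it. A gene such as Postn passed mainly through its BV+ libraries, so the 6 that were tested do not stand for all 10. In bulk libraries, a smaller number of cells of one type and less RNA per cell cannot be told apart.

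Receptors were examined first. Pdgfra, the PDGFRα gene, was at 3.25, 2.73 and 3.61 CPM in the 3 BV- NRF1 OE libraries and at 7.88 and 7.85 CPM in the 2 BV- Ctrl libraries. In BV+ cells it was at 3.71 and 2.94 CPM with NRF1 OE and at 6.82 and 8.13 CPM with Ctrl. Every NRF1 OE library lay below every Ctrl library in both populations. In BV- cells Pdgfra fell by 1.29 on the log2 scale (SE 0.197, adjusted p = 0.0317, edgeR's quasi-likelihood test), and it was the only marker to pass the test there. The call was lost when only the BV- libraries were fitted (adjusted p = 0.0806) and when either Ctrl library of either population was left out. Without BV- Ctrl replicate 1 the log2FC was -1.29 and the adjusted p was 0.311. In BV+ cells the log2FC was -1.17 (SE 0.217), and BV+ and BV- cells differed by -0.07 (SE 0.204) at Ctrl and by 0.05 (SE 0.212) at NRF1 OE. Pdgfra overlaps 2 genes on the opposite strand, and the sources used here do not state whether counting used strand.

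Pdgfrb, the PDGFRβ gene, had a different pattern. It was at 15.1 and 10.0 CPM in the BV+ NRF1 OE libraries, at 3.87 and 2.94 CPM in BV+ Ctrl, at 1.63, 2.43 and 1.54 CPM in BV- NRF1 OE and at 1.32 and 1.71 CPM in BV- Ctrl. The BV+ NRF1 OE libraries were above all others, the BV+ Ctrl libraries came next, and the BV- groups overlapped. The log2FC with NRF1 OE was 1.89 (SE 0.278) in BV+ cells and 0.27 (SE 0.327, adjusted p = 0.566, edgeR) in BV- cells. BV+ exceeded BV- cells by 1.14 (SE 0.33) at Ctrl and by 2.76 (SE 0.262) at NRF1 OE, both as log2FCs.

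Among the surface proteins, Cd248 differed most between the groups. It was at 18.9 and 8.22 CPM in BV+ NRF1 OE, 3.08 and 2.26 CPM in BV+ Ctrl, 0.301, 0.737 and 0.355 CPM in BV- NRF1 OE and 0.189 and 0.427 CPM in BV- Ctrl. The order of the groups was that of Pdgfrb, and BV+ NRF1 OE replicate 1 was far above replicate 2. The log2FC with NRF1 OE in BV+ cells was 2.36 (SE 0.396), and without replicate 1 it was 1.63. BV+ exceeded BV- cells by 3.03 (SE 0.609) at Ctrl and by 4.90 (SE 0.44) at NRF1 OE on the log2 scale. In BV- cells, where Cd248 had between 3 and 10 counts per library, the log2FC with NRF1 OE was 0.49 (SE 0.761, adjusted p = 0.66, edgeR).

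Thy1 did not share that pattern. It was at 3.50 and 2.39 CPM in BV+ NRF1 OE, 4.13 and 3.57 CPM in BV+ Ctrl, 3.43, 4.42 and 5.09 CPM in BV- NRF1 OE and 3.59 and 4.59 CPM in BV- Ctrl. The BV- groups overlapped, with a log2FC of 0.07 (SE 0.249, adjusted p = 0.852, edgeR). In BV+ cells the log2FC with NRF1 OE was -0.38 (SE 0.279), and the 2 NRF1 OE libraries lay below both Ctrl libraries. BV+ differed from BV- cells by -0.10 (SE 0.273) at Ctrl and by -0.54 (SE 0.256) at NRF1 OE, on the log2 scale. T cells also make THY1, and of 6 T cell markers Lck, a kinase gene, had group means between 22.5 and 31.9 CPM, Cd3e between 1.49 and 2.63 and Cd4 between 1.24 and 1.77, while Cd3g was at 0 in every group. The part of such transcripts in the Thy1 values was not tested.

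**Figure D2:**
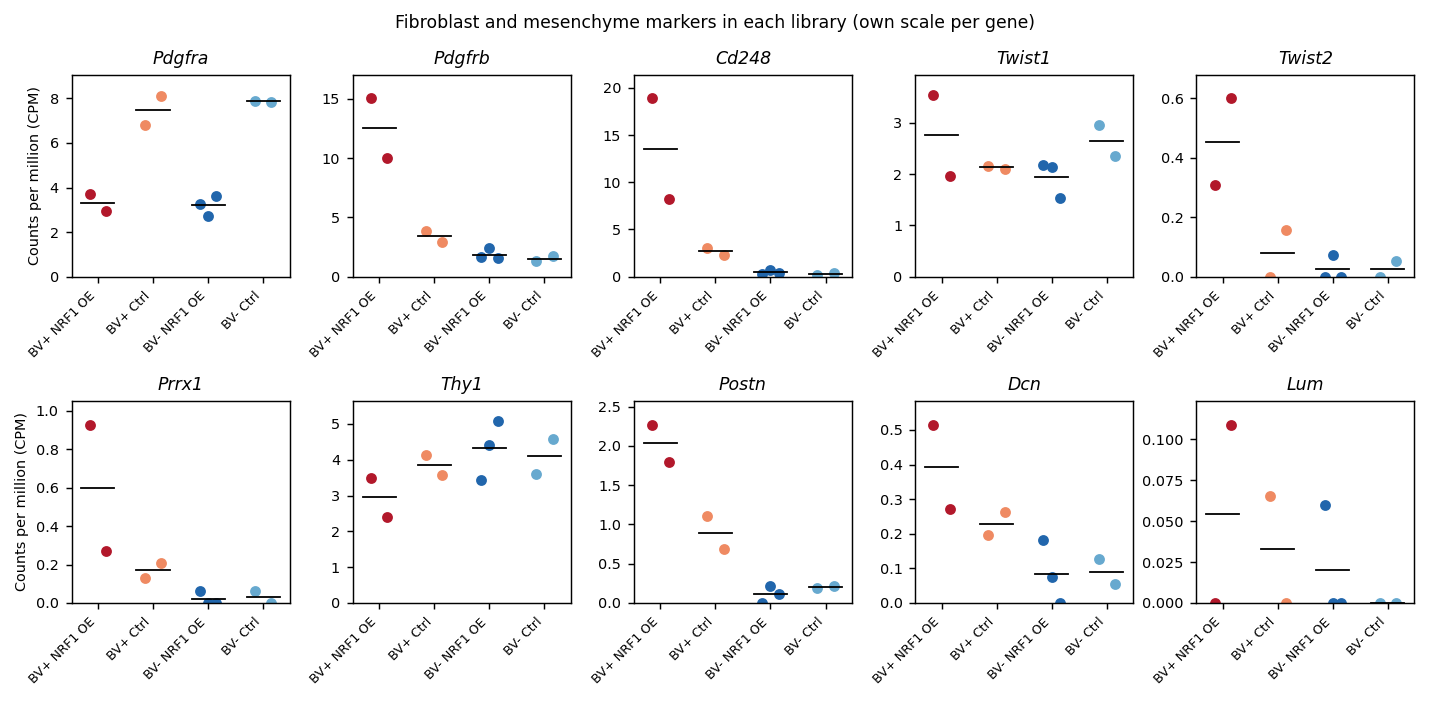
CPM (vertical axes, linear, own scale per gene) of the 10 markers in each of the 9 libraries; points are libraries and black lines are group means. Every marker except Pdgfra and Thy1 has its highest group mean in BV+ NRF1 OE cells, for Twist1 by little and for Lum on at most 2 counts per library. Pdgfra is lower with NRF1 OE in both populations.

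Of the transcription factors, Twist1 was the only one with enough counts to be tested. It was at 3.55 and 1.96 CPM in BV+ NRF1 OE, 2.16 and 2.10 CPM in BV+ Ctrl, 2.17, 2.14 and 1.54 CPM in BV- NRF1 OE and 2.96 and 2.35 CPM in BV- Ctrl. The BV+ groups overlapped, and the log2FC of 0.38 (SE 0.33) became -0.12 without BV+ NRF1 OE replicate 1. In BV- cells the log2FC was -0.45 (SE 0.308, adjusted p = 0.301, edgeR), and the libraries did not overlap. BV+ differed from BV- cells by -0.31 (SE 0.334) at Ctrl and by 0.51 (SE 0.303) at NRF1 OE, on the log2 scale.

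Twist2 had 6 and 11 counts in the BV+ NRF1 OE libraries, 0 and 3 in BV+ Ctrl, 0, 1 and 0 in BV- NRF1 OE and 0 and 1 in BV- Ctrl. Prrx1 had 18 and 5 counts in BV+ NRF1 OE, 2 and 4 in BV+ Ctrl, 1, 0 and 0 in BV- NRF1 OE and 1 and 0 in BV- Ctrl. Both were nearly absent from BV- cells. Scaled to depth, the summed counts of BV+ NRF1 OE exceeded those of BV+ Ctrl by a ratio of 5.15 for Twist2 (95% exact interval 1.49 to 27.4) and of 3.48 for Prrx1 (1.38 to 10.5). These intervals cover counting error only and not the spread between libraries. They are a description and not a test, since they compare BV+ libraries. Prrx1 was at 0.927 and 0.272 CPM in the BV+ NRF1 OE libraries, and the lower value was near 0.21 in BV+ Ctrl replicate 2. Both genes overlap other annotated genes, on the opposite strand among them.

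Of the matrix genes, Postn was at 2.27 and 1.80 CPM in BV+ NRF1 OE, 1.11 and 0.682 CPM in BV+ Ctrl, 0, 0.221 and 0.118 CPM in BV- NRF1 OE and 0.189 and 0.214 CPM in BV- Ctrl. The BV+ libraries were all above the BV- libraries, and within BV+ cells those with NRF1 OE were above those with Ctrl. The log2FCs were 1.19 (SE 0.465) for NRF1 OE in BV+ cells, 2.09 (SE 0.653) for BV+ versus BV- at Ctrl and 4.16 (SE 0.582) at NRF1 OE. In BV- cells, with 4 counts or fewer per library, it was -0.88 (SE 0.876, adjusted p = 0.483, edgeR).

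Dcn had 10 and 5 counts in BV+ NRF1 OE, 3 and 5 in BV+ Ctrl, 3, 1 and 0 in BV- NRF1 OE and 2 and 1 in BV- Ctrl. The ratio of BV+ to BV- cells at NRF1 OE was 4.67 (95% exact interval 1.49 to 19.3, counting error only), and the ratio of NRF1 OE to Ctrl in BV+ cells was 1.70 (0.678 to 4.64). Both ratios contain BV+ libraries, so their intervals are likewise a description and not a test. Lum had at most 2 counts in any library, so that no difference was detectable at this depth.

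Counted over the tested markers, 0 of 6 were called higher and 1 of 6 (Pdgfra) lower with NRF1 OE in BV- cells at an adjusted p under 0.05 in edgeR, where 10.2% of all genes tested were called higher and 6.98% lower. With NRF1 OE in BV+ cells, 2 of 6 (Pdgfrb and Cd248) were called higher and 1 of 6 (Pdgfra) lower, beside 6.24% and 1.78% of all genes. For BV+ versus BV- cells at Ctrl, 1 of 6 (Cd248) was called higher and 0 of 6 lower, beside 1.10% and 0.0237% of all genes. At NRF1 OE, 3 of 6 (Pdgfrb, Cd248 and Postn) were called higher and 0 of 6 lower, beside 9.90% and 3.85% of all genes. The last 3 comparisons share libraries with the one in which Cd248 was known, and nothing is read from their counts. The calls in BV+ cells depended on single libraries: 0 markers were called without BV+ NRF1 OE replicate 1 and without either BV+ Ctrl library.

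The median log2FC of the 6 markers was 0.78 with NRF1 OE in BV+ cells, where the median of all genes was 0.036, and -0.19 in BV- cells, where it was 0.009. The BV+ median includes Cd248, whose rise there was known beforehand, and Postn, which passed the filter mainly through BV+ libraries. Nothing is read from that median. Over all 10 markers, group means in CPM were higher with NRF1 OE for 8 in BV+ cells and for 4 in BV- cells. These directions rest in part on single reads. Summed counts with NRF1 OE and Ctrl were 2 and 1 for Lum in BV+ cells and 1 and 0 in BV- cells. For Twist2 in BV- cells they were 1 and 1. The same count was not made over all genes, and nothing is read from it. The NRF1 OE effect in BV+ cells minus that in BV- cells was 1.86 (SE 0.918) for Cd248, 1.62 (SE 0.431) for Pdgfrb and 2.07 (SE 1.01) for Postn on the log2 scale, and 0.12 (SE 0.294) for Pdgfra. No p-value is given for these differences, since they contain the BV+ comparison.

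**Figure D3:**
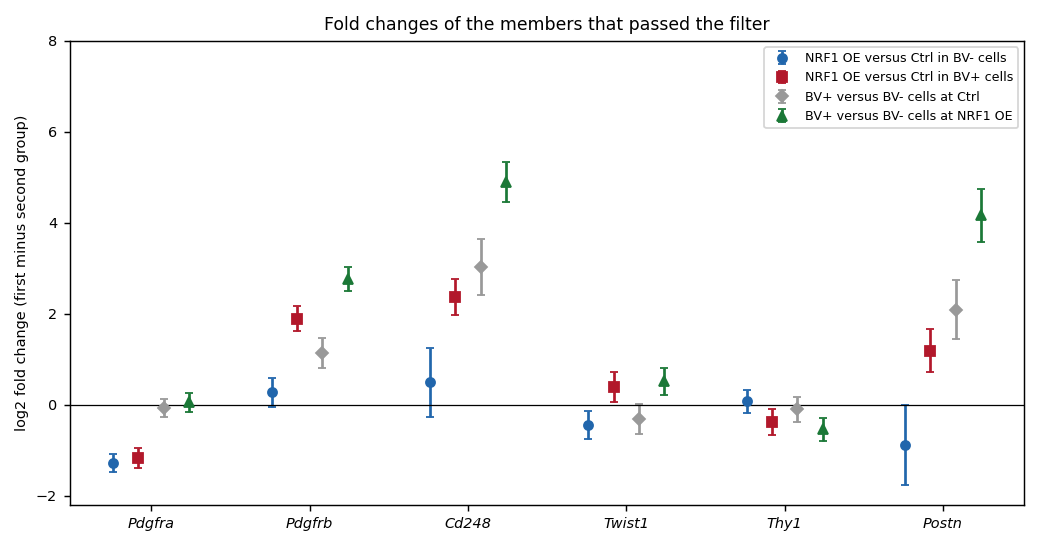
Log2 fold change with its standard error (vertical axis) of the 6 tested markers in the 4 comparisons; values above 0 are higher in the first-named group. Cd248, Pdgfrb and Postn are above 0 in the 3 comparisons that contain BV+ cells, and Pdgfra is near -1.29 and -1.17 in the comparisons of NRF1 OE with Ctrl.

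The genes whose pattern over the 9 libraries was most like each marker were found by the root mean square difference of log2 CPM, each gene centred on its own mean, among 14370 other genes. For Pdgfrb they were Des, which encodes the muscle filament desmin (0.203), and Efna5, an ephrin ligand (0.211). For Cd248 they were Bgn, which encodes the matrix proteoglycan biglycan (0.309), and Nkx2-3, a homeobox gene (0.34). For Pdgfra they were Gm7045 (0.172) and Neto2 (0.2). Twist1 and Thy1 varied so little, with SDs of 0.311 and 0.29 on the log2 scale, that many genes could resemble them. Their nearest genes were Gm26885 (0.167) and B230307C23Rik (0.18) for Twist1, and ENSMUSG00000120585 (0.145) and Pik3r5 (0.146) for Thy1. These values are a description over 9 libraries that share the 4 groups.

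Other fibroblast and matrix genes were counted from a list of 30, of which 21 were tested. This list and those below were chosen with earlier results of these data known. Adjusted p-values of their genes in comparisons that contain BV+ libraries are therefore a description and not independent support. Some listed genes passed the filter mainly through BV+ libraries, such as Tnc of this list and Emcn of the endothelial list. The counts of tested genes higher in BV+ libraries are thus partly set by the filter and are also a description. With NRF1 OE in BV+ cells, 11 of 21 were higher and 0 lower, beside 6.24% and 1.78% of all genes tested. Among them were the collagen gene Col1a2, with a log2FC of 2.26 (adjusted p = 0.00966, edgeR), the matrix glycoprotein gene Sparc at 1.07 (adjusted p = 0.0179, edgeR) and the filament gene Vim at 1.37 (adjusted p = 0.0124, edgeR). In BV- cells 2 of 21 were higher and 0 lower, a share near the 10.2% of all genes called higher: Col3a1, at 2.08 (adjusted p = 0.0436, edgeR), and Mfap4, at 1.02 (adjusted p = 0.0404, edgeR). BV+ exceeded BV- cells for 5 of 21 genes at Ctrl, beside 1.1% of all genes, and for 13 of 21 at NRF1 OE, beside 9.9%. At NRF1 OE Col1a2 differed by 5.08 (adjusted p = 1.33e-06, edgeR). The shares of all genes given here also apply to the lists below. The BV+ count of 11 became 0 without BV+ NRF1 OE replicate 1 and 0 without either BV+ Ctrl library, and so did the BV+ counts of every other list given below. The BV- count of 2 became 0 with only the BV- libraries fitted, with offsets for GC content and length, without any 1 Ctrl library of either population and without BV- NRF1 OE replicate 2 or 3, and it became 4 without BV- NRF1 OE replicate 1.

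Of 22 further mesenchyme transcription factors, 12 were tested. With NRF1 OE in BV+ cells 3 of 12 were higher and 0 lower, beside 6.24% and 1.78% of all genes. The 3 were Foxc1, a forkhead factor, at 1.82 on the log2 scale, Prrx2, a homologue of Prrx1, at 1.49, and Zeb2, a zinc-finger repressor, at 0.70. In BV- cells 0 of 12 were called. BV+ exceeded BV- cells for 2 of 12 at Ctrl and 8 of 12 at NRF1 OE, beside 1.1% and 9.9% of all genes.

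The PDGF ligands and the receptor-like gene were tested for all 5 list genes. Pdgfb, which encodes a ligand of both PDGF receptors, ranged from 12.8 to 27.2 CPM in the BV+ NRF1 OE libraries. In BV+ Ctrl it ranged from 5.90 to 7.71 CPM (log2FC 1.55, adjusted p = 0.0233, edgeR). Pdgfrl was higher by 0.69 (adjusted p = 0.0466, edgeR), and the other 3 genes were not called. Pdgfa, which encodes a ligand of PDGFRα, was at 31.2 to 38.0 CPM as a mean in the 4 groups and was called in none of the comparisons. In BV- cells 0 of 5 were called.

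TWIST factors bind DNA as dimers with E proteins (Tcf3, Tcf4 and Tcf12), and ID proteins take E proteins out of such dimers. Of these 7 list genes, 2 were higher and 0 lower with NRF1 OE in BV+ cells, Id1 by 0.70 (adjusted p = 0.0481, edgeR) and Id3 by 1.70 (adjusted p = 0.0134, edgeR). In BV- cells Tcf3 rose by 0.51 (adjusted p = 0.0342, edgeR) and Tcf4 fell by 0.85 (adjusted p = 0.0343, edgeR), calls that were lost with only the BV- libraries fitted, without any 1 Ctrl library and without BV- NRF1 OE replicate 3. With offsets for GC content and length 0 of 7 were higher and 1 lower.

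Markers of other cell types were counted in the same way. Of 9 tested pericyte and smooth muscle markers, 7 were higher with NRF1 OE in BV+ cells, beside 6.24% of all genes. Among them was Acta2, the smooth muscle actin gene, by 2.31 on the log2 scale (adjusted p = 0.00966, edgeR). At NRF1 OE 7 of 9 were higher in BV+ than BV- cells, beside 9.9% of all genes. The summed level of all 11 pericyte and smooth muscle genes was 1290 and 810 CPM in the BV+ NRF1 OE libraries, 405 and 405 in BV+ Ctrl and between 256 and 432 in the BV- libraries. The higher of the BV+ NRF1 OE libraries was replicate 1, as it was for the 10 fibroblast markers, which summed to 48.8 and 28.6 CPM there. Of 10 endothelial markers, 4 were higher with NRF1 OE in BV+ cells and 7 higher in BV+ than BV- cells at NRF1 OE, including Kdr, a VEGF receptor gene, by 3.73 (adjusted p = 3.54e-06, edgeR). Their summed level was between 177 and 207 CPM in every library, and Emcn was at 0 in both BV- Ctrl libraries. Pecam1 made up most of that sum, with group means from 122 to 163 CPM, and was not called in any comparison. Its log2FC was -0.24 with NRF1 OE in BV+ cells and -0.41 for BV+ versus BV- cells at NRF1 OE. In these 2 comparisons 9 and 8 of the 10 endothelial log2FCs were above 0. In BV- cells 10.2% of all genes tested were called higher with NRF1 OE, and 0 of 6 fibroblast markers were. There 2 of 9 pericyte and smooth muscle markers rose, Acta2 by 0.87 (adjusted p = 0.0403, edgeR) and Tagln by 1.26 (adjusted p = 0.0411, edgeR). Of 10 endothelial markers 1 rose, Cldn5 by 1.10 (adjusted p = 0.0456, edgeR). Counts this small do not set the lists apart. These BV- counts became 0 with only the BV- libraries fitted, with offsets for GC content and length and without any 1 Ctrl library. Both the pericyte and the endothelial count also became 0 without BV- NRF1 OE replicate 3. The endothelial count was 0 without replicate 2, and the pericyte count was 4 without replicate 1. The part of pericytes, smooth muscle and endothelial cells in the fibroblast marker values was not tested.

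Primitive endoderm markers were examined because that tissue also makes PDGFRα. In BV- cells 3 of 14 were lower with NRF1 OE and 0 higher, beside 6.98% and 10.2% of all genes tested. Gata6, which encodes a transcription factor of that lineage, was at 2.88 ± 1.01 CPM (SD, n = 3) against 6.01 ± 0.483 (SD, n = 2). Cubn and Dab2, which encode endocytic proteins, had log2FCs of -1.07 and -0.71 (adjusted p = 0.0317 for both, edgeR). The count of 3 became 6 without BV- NRF1 OE replicate 2, and it became 0 with only the BV- libraries fitted, without any 1 Ctrl library and without BV- NRF1 OE replicate 3. In BV+ cells 1 of 14 was lower, Cubn by -1.59. The summed level of the 14 genes was 449 to 658 CPM in BV- NRF1 OE and 644 to 723 in BV- Ctrl cells, and none of the 14 was at 0 in any group. Their part in the Pdgfra values was not tested.

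Of the tested blood, neural and T cell markers, 0 of 6, 0 of 7 and 0 of 3 were called by edgeR with NRF1 OE in BV+ cells. In BV- cells 0 of 6, 1 of 7 (Elavl3, log2FC -0.72) and 0 of 3 were called.

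**Figure D4:**
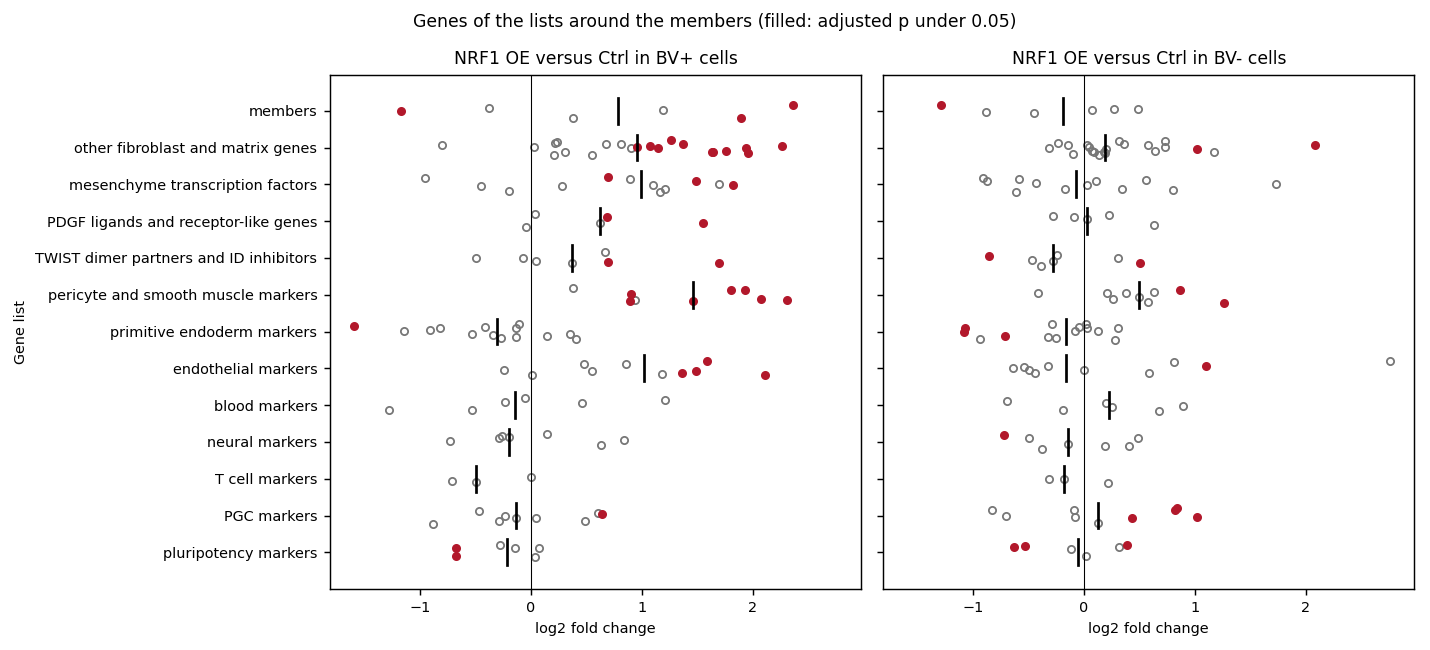
Log2 fold change (horizontal axis) with NRF1 OE of each tested gene, by list, in BV+ cells (left) and BV- cells (right); filled points have an adjusted p under 0.05 and black bars are medians. In BV+ cells 11 of 21 fibroblast and matrix genes and 7 of 9 pericyte and smooth muscle markers are filled to the right of 0; the open endothelial point at 2.76 on the right is Emcn, which had 0 counts in BV- Ctrl.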

How the data were processed

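RNA-seq covered 9 libraries of sorted BV+ and BV- cells in 4 groups, taken from the sample titles. Per the labels and the paper's methods, poly(A) RNA was sequenced, reads were trimmed with Cutadapt, mapped to GRCm39 with HISAT2 2.0.1 and counted per gene with HTSeq 0.6.1. The authors deposited raw counts per gene, which are not normalized, and FPKM per gene calculated from them. FPKM were used only to compare levels between genes. Whether counting used strand is not given in the sources used here.

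Counts were tested in R 4.3.3 with edgeR 4.0.16 (quasi-likelihood F test, TMM, filterByExpr) with 1 model over all libraries and 4 group terms, two-sided, with Benjamini-Hochberg adjustment over the 16903 genes tested. CPM used TMM-scaled library sizes. Log2 CPM used a prior count of 2. Total counts were 13702162 to 19625460. Alternatives were DESeq2 1.42.0, other scaling, other filters, only the groups compared, thinned counts, a replicate block, offsets for GC content and length (from GRCm38 transcripts, found for 98.6% of tested genes), the study's threshold (p under 0.05 and absolute log2 fold change above 0.58) and each library left out. The procedure was tested on simulated counts: 157 of 197 genes given a log2 change of 1.5 were recovered for NRF1 OE versus Ctrl in BV- cells, among 16506 genes.

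The genes named are the 10 markers, Nrf1, genes of 12 lists (the 3 called genes with the highest mean CPM and the 1 with the largest fold change at a mean of at least 1 CPM, or the 2 most abundant where none was called) and the 2 genes most like each marker. Not every gene this rule gives is printed. Prdm1, Cd3g, Emcn and Pecam1 were added after their values were seen. The members and lists were chosen with earlier results of these data known. With 2 or 3 libraries per group, no exact permutation test of a single gene can reach 0.05. Plots used matplotlib 3.10.9 under Python 3.11.15.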

Additional observations from a re-analysis of the deposited data

How the results depend on the processing

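The number of markers called in BV- cells was 1 (Pdgfra) and moved to 0 with only the libraries compared and with the replicate block. At Ctrl, BV+ versus BV- cells gave 1 call, which moved to 3 without a filter on low counts, to 0 with a filter of 10 counts on average, to 2 with only the libraries compared, to 3 at the study's threshold and to 0 with the replicate block. At NRF1 OE the 3 calls became 5 without a filter, by the addition of Twist2 and Prrx1. In BV+ cells the 3 calls became 0 with the replicate block. The block also gave 0 calls in BV- cells for the fibroblast and matrix, TWIST partner, pericyte, endothelial and primitive endoderm lists. With NRF1 OE in BV+ cells it lowered the count of fibroblast and matrix genes called higher from 11 to 2. It gave 0 there for the mesenchyme transcription factor, PDGF, TWIST partner, pericyte and endothelial lists. The correlation of deviations of same-numbered libraries ranged from -0.295 to 0.243 over 12 pairs and was above 0.1 in 2 of them. Both of these were between BV- NRF1 OE and BV- Ctrl libraries (0.204 and 0.243). Deviations in a group of 2 libraries mirror each other, so the pairs are not independent. These values cannot decide whether the replicate numbers pair the samples. An exchange of the numbers of the BV+ Ctrl libraries in the block, chosen after seeing the data, also gave 0 calls at Ctrl.

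With each library left out in turn, calls ranged from 0 to 1 in BV- cells, 0 to 2 for BV+ versus BV- at Ctrl, 3 to 5 at NRF1 OE and 0 to 3 with NRF1 OE in BV+ cells. A group left with 1 library is assumed to vary like the others, and the filter then keeps up to 8 markers. The log2 fold change of Thy1 in BV- cells, which was not called, changed sign to -0.03 with thinned counts, -0.07 with the replicate block and -0.31 with offsets for GC content and length, and ranged from -0.09 to 0.25 with a library left out. Of 460 other fits of a marker's log2 fold change, 429 kept their direction and call in BV- cells or stayed within 1 standard error in the other comparisons. A fit within 1 standard error could still gain or lose a call. The number of markers called moved beyond the tolerance set for it in 25 of 81 refits. The cause of these changes was not tested. Depth limits Twist2, Prrx1, Dcn and Lum most.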
